A study of Mus musculus with 8 samples.

Results

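Keratins are the intermediate filament proteins of epithelial cells, and the 10 genes described here are the basal keratins Krt5, Krt14 and Krt15, the corneal keratin Krt12, the stress keratins Krt6a, Krt6b, Krt16 and Krt17 and the epidermal keratins Krt1 and Krt10. They were taken from the deposited table by gene symbol, 10 of the 23420 genes it names and 10 of the 17442 with reads. All 10 had more than 3 reads in both tissues. The other 34 keratins with reads serve for comparison.

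The study compared the limbus, the rim of the cornea where the epithelial stem cells lie, with the central cornea of wild type C57BL/6J mice that were 8 weeks old. Tissue from 16 eyes was dissected into rim and central button, the pieces of each kind went into 1 pool, and stranded libraries of total RNA were sequenced. Both groups were wild type and no treatment is named, so they differ by tissue. GEO lists 4 samples per tissue, with numbers of the kind used for sequencing lanes, but the table holds the mean of only 1 cornea and 1 limbus library, and no second pool is given. There was therefore no spread between replicates and no test. Each value below has only the error of counting reads, given as an exact Clopper-Pearson 95% interval, and a difference beyond that interval is one between these 2 libraries.

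Keratins assemble as pairs of an acidic type I and a basic type II chain, and different layers and kinds of epithelium use different pairs. Basal cells of stratified epithelia build filaments from Krt5 with Krt14 or Krt15, the differentiated cornea is known for Krt12, and the cornified epidermis for Krt1 with Krt10. Krt6a, Krt6b, Krt16 and Krt17 are known as the keratins that skin and other stratified epithelia switch on after injury, and some are present without injury in hair follicles and mucosae. Of the 10 genes, Krt10, Krt12, Krt14, Krt15, Krt16 and Krt17 are type I and lie within the cluster of 27 type I keratin genes on chromosome 11 (GRCm38, 99232761 to 100269871). Krt1, Krt5, Krt6a and Krt6b are type II and lie within the cluster of 25 keratin genes on chromosome 15 (101347444 to 102004482). All 10 are on the minus strand.

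The promoters of Krt12 and Krt5 are printed because these were the members with the most reads in the cornea and the only 2 on the cornea side. Promoters of 4 of the 10 members (Krt5, Krt10, Krt12 and Krt14) were found in RefSeq, from 250 bases before to 50 bases after the start (GRCm38.p6, minus strand). The Krt12 sequence is chr11:99422210-99422509 and the Krt5 sequence chr15:101712856-101713155, and capitals mark TATAAA, searched on both strands.

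Krt12: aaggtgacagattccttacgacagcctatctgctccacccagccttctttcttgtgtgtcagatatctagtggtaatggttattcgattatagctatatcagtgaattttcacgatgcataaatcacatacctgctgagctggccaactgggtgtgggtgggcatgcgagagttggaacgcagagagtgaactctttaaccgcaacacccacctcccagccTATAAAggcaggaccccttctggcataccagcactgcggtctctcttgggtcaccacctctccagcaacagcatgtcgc

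Krt5: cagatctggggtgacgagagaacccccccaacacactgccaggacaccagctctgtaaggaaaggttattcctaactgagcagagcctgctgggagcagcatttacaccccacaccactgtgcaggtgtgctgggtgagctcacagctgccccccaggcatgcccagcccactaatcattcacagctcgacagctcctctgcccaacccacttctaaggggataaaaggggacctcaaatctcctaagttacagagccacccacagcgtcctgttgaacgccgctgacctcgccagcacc

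TATAAA stood at -29 from the start of Krt12 and at -26 in Krt10, was not found in the Krt5 and Krt14 windows, and occurs in 14.2% of 27025 promoters of this length. CACCC, the core of the letters that Klf factors bind, was found on one strand or the other in 4 of the 4 member windows and in 56.7% of all promoters. TGANTCA, the letters of AP-1 sites, was in 0 of the 4 and 7.93% of all, and GCCNNNGGC, the letters of AP-2 sites, in 0 of the 4 and 16.5%. The Krt14 entry covers 100205981 to 100206280 on chromosome 11, inside the gene as GENCODE draws it (100203162 to 100207548), so which start it marks is not known here. A match is only a match of letters.

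Krt6a and Krt6b share much of their sequence, which limits how far their reads can be told apart, and the stretch of their coding sequences in which they differ most is printed to show this. Both lines are coding bases 817 to 876, with capitals at the 10 positions where the genes differ.

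Krt6a: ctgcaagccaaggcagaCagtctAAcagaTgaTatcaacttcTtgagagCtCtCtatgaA

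Krt6b: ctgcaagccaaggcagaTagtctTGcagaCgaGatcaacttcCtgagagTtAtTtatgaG

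Over the whole coding sequence the 2 genes were 97.8% identical, with 37 mismatches, and the longest run without a difference was 280 bases. Of all stretches of 75 bases, the read length, in Krt6a transcripts, 42.3% also occurred in another gene, mostly Krt6b and Gm5478, and of those in Krt6b 39.6%. For Krt16 the share was 28.9%, with Gm11597 and Krt14, for Krt14 5.91%, with Krt16, and for Krt5 5.18%. Krt1, Krt10, Krt12, Krt15 and Krt17 shared no such stretch with any annotated transcript. The study sequenced paired ends, so these shares of single stretches are not the shares of read pairs that match several genes. How the mapping placed reads that match several genes is not given in the sources used here, so values of Krt6a, Krt6b and Krt16 carry that limit.

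On named genes there were 26104317 reads for the cornea and 21182025 for the limbus. Levels below are normalized reads, that is reads divided by the size factor of the library (1.03 for cornea and 0.967 for limbus), and ratios are of cornea over limbus. Among 13862 genes compared, those for which each library had over 3 reads, 8.66% were at least 2-fold higher in the cornea beyond counting error and 14.7% at least 2-fold higher in the limbus, or 5.37% and 17.3% when scaled to total reads. By the same rule 1 of the 10 keratins was higher in the cornea (Krt12) and 4 in the limbus (Krt14, Krt15, Krt16 and Krt17). The median log2 ratio of the 10 was -0.45, with 2 genes on the cornea side and 8 on the limbus side, beside 0.05 for all genes (quartiles -0.46 and 0.51). The header of the table names neither tissue, and the sign was set from genes outside the keratins whose side the study's text states. That text also gives the side of Krt5, Krt12, Krt14 and Krt15, so their directions are no separate check of the dissection. In pooled tissue, fewer cells of a type and less RNA per cell cannot be told apart.

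**Figure D1:**
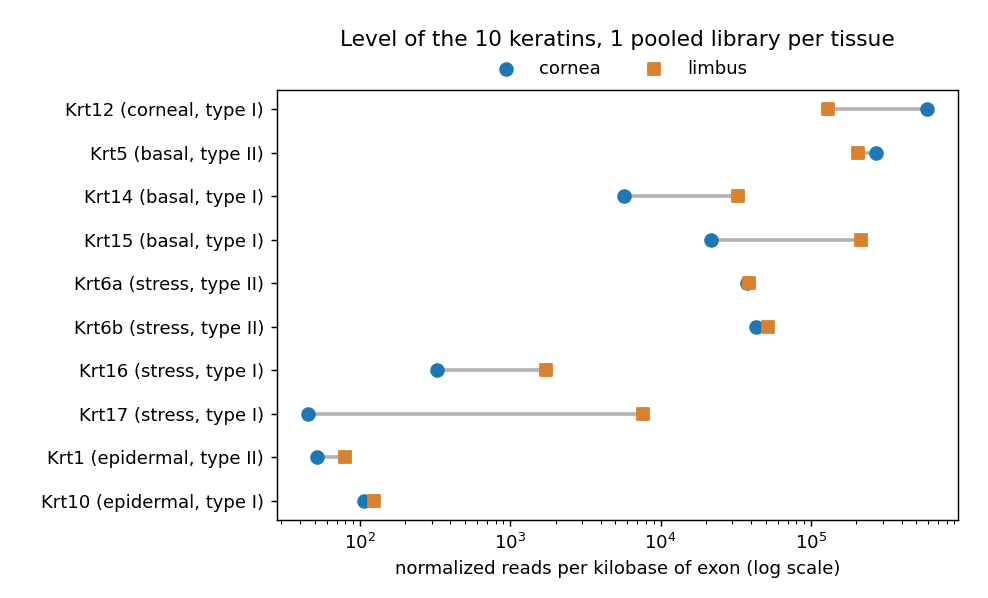
Normalized reads per kilobase of exon (log axis) of each of the 10 keratins in the cornea library (circles) and the limbus library (squares), joined by a line, with 1 pooled library per tissue. Krt12 is far to the right in the cornea, Krt14, Krt15, Krt16 and Krt17 are to the right in the limbus, and the symbols of Krt6a, Krt6b and Krt10 lie close together.

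Krt12, the type I keratin of the differentiated corneal epithelium, had 1137735 cornea reads and 233324 limbus reads. That is 1100596 against 241197 normalized reads, or a 4.56-fold excess in the cornea (log2 2.19, interval 2.18 to 2.20). A higher ratio was found for 125 of the 13862 genes (0.902%). Per kilobase of exon it ranked 1 in the cornea and 7 in the limbus among 16298 genes, so that it was still among the most abundant messengers of the limbal rim. It took 4.36% of all cornea reads and 1.10% of limbus reads. The Krt12 gene (chromosome 11, 99415666 to 99422259) overlaps the antisense gene A830036E02Rik, and whether counting used the strand is not given in the sources used here.

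Krt5, the type II keratin of basal cells and the partner of all the type I chains of this layer, had 614126 cornea reads and 433918 limbus reads. Its 594079 normalized reads in the cornea were 1.32-fold those of the limbus, 448560 (log2 0.41, interval 0.40 to 0.41), a difference beyond counting error and under 2-fold. It ranked 4 and 3 per kilobase, the only member among the first 5 genes of both libraries. After scaling to the 18 pan-epithelial genes described below the ratio was 0.11.

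Krt14, the type I basal keratin of skin and other stratified epithelia, went the other way from Krt12. It had 9952 cornea reads and 53574 limbus reads, or 9627 and 55382 normalized reads, 5.75-fold more in the limbus (log2 -2.52, interval -2.56 to -2.49). Its rank per kilobase was 226 in the cornea and 42 in the limbus.

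Krt15, a type I keratin of basal cells that is known as a marker of the limbal epithelium and of the hair follicle bulge, had 37738 cornea reads and 353826 limbus reads. The 36506 and 365766 normalized reads differ 10.02-fold (log2 -3.32, interval -3.34 to -3.31), and 337 of the genes compared (2.43%) lay further to the limbus side. In the limbus it ranked 2 of all genes per kilobase, and in the cornea 63. Among the 10 keratins it was the first of the limbus and the fifth of the cornea.

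The 4 stress keratins split by type. Krt6a had 88825 cornea reads and 85861 limbus reads (85925 and 88758 normalized, log2 -0.05, interval -0.06 to -0.03), and ranked 31 and 29. Its gene overlaps the antisense gene Gm49428. Krt6b had 99464 and 111541 reads (96217 and 115305 normalized, log2 -0.26, interval -0.27 to -0.25), and ranked 27 and 21. These 2 type II chains were thus among the more abundant messengers of both uninjured tissues and differed little between them. With both summed, how shared reads were split between them no longer matters. The ratio of the sum was -0.16 (interval -0.17 to -0.15), and they took 0.721% of cornea reads and 0.932% of limbus reads. Reads that also match Gm5478, Krt5 or Gm5414, or that the mapping may have left out, still limit these values.

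The type I stress keratins were far higher in the limbus. Krt16 had 528 cornea reads and 2613 limbus reads (511 and 2701 normalized), 5.29-fold more in the limbus (log2 -2.40, interval -2.54 to -2.27), with ranks of 3989 and 746. Krt14 shares 5.91% of its 75-base stretches with Krt16 and had far more reads (9952 for the cornea and 53574 for the limbus). How many of the reads counted for Krt16 came from Krt14 was not tested. Krt17, which besides injured skin marks the hair follicle and other skin appendages, had 72 cornea reads and 11514 limbus reads (69.6 and 11903 normalized). This was 170.9-fold more in the limbus (log2 -7.42, interval -7.77 to -7.08), the widest difference of the 10. Of the 13862 genes compared, 11 lay further to that side. That set leaves out genes with 3 or fewer reads in either library, among them Emcn with 2 cornea reads and 365 limbus reads. The 11 therefore do not count strongly limbal genes with so few cornea reads. Krt17 ranked 9284 per kilobase in the cornea and 174 in the limbus.

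The epidermal keratins were scarce in both tissues. Krt1 had 131 cornea reads and 190 limbus reads (127 and 196 normalized, log2 -0.63, interval -0.96 to -0.30), and Krt10, its type I partner, 232 and 254 (224 and 263 normalized, log2 -0.23, interval -0.49 to 0.04). The Krt10 libraries could not be told apart by counting error at the main scaling, and its ratio was -0.43 when scaled to total reads. They ranked between 6829 and 9052 per kilobase, against ranks of 1 to 226 for the basal and corneal keratins. Krt10 overlaps the antisense gene Gm11940. Most other markers of cornified epidermis were at or near 0. Of 10 genes listed, Flg, Flg2, Lce1a1 and Lce1b had no reads, Krt2 had 2 in the cornea and 1 in the limbus, Lor 2 and 1, Krt77 0 and 2, and Krtdap 2 and 19. The list had 212 cornea reads and 59 limbus reads, of which Cdsn, the corneodesmosin of cell junctions, had 154 and 14 and Dsc1, a desmosomal cadherin, 52 and 22.

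**Figure D2:**
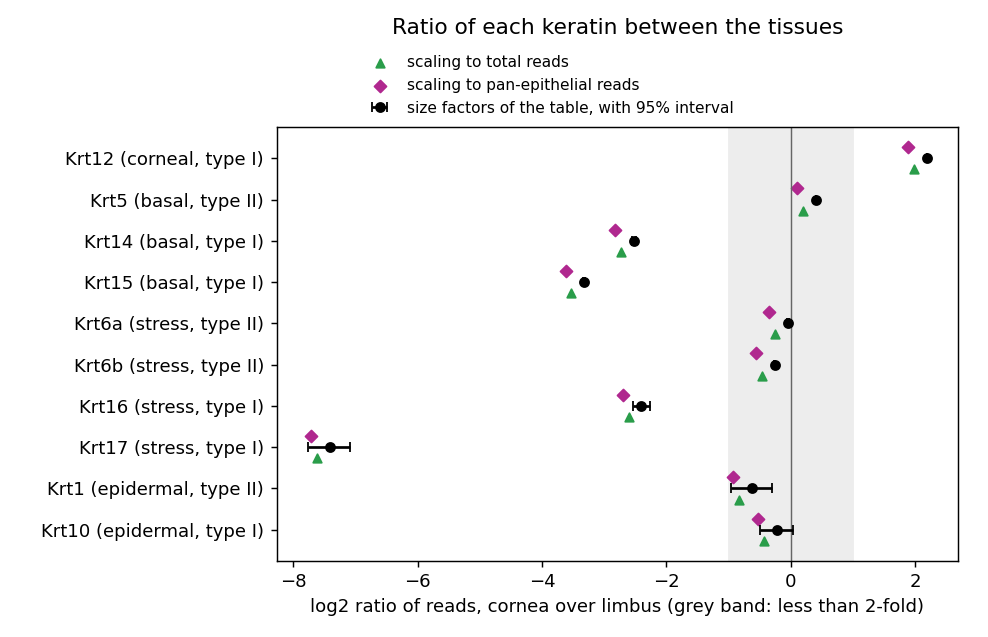
Log2 ratio of cornea over limbus (horizontal axis) of the 10 keratins under the size factors of the table (black circles, with exact 95% counting intervals that for most genes are narrower than the symbol), scaling to total reads (triangles) and scaling to pan-epithelial reads (diamonds). Krt12 lies to the right of the grey band that marks less than 2-fold and Krt14, Krt15, Krt16 and Krt17 to the left of it, under each of the 3 scalings.

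Per kilobase, the order of the levels in the cornea was Krt12, Krt5, Krt6b, Krt6a, Krt15, Krt14, Krt16, Krt10, Krt1 and Krt17. Normalized reads per kilobase ran from 594274 for Krt12 and 270405 for Krt5 to 51.6 for Krt1 (interval 43.2 to 61.3) and 44.9 for Krt17 (35.1 to 56.6), and this last pair was the only one whose counting intervals overlapped. In the limbus the order was Krt15 (215156), Krt5 (204169), Krt12 (130236), Krt6b, Krt6a, Krt14 (32616), Krt17 (7674), Krt16 (1726), Krt10 (124, interval 109.4 to 140.5) and Krt1 (69.0 to 92.2), with no overlap between neighbours. Krt17 thus stood last in the cornea and above Krt16 in the limbus.

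The make-up of the type I keratins differed most. Krt12 made up 92.9% of all type I keratin reads of the cornea and 28.9% of those of the limbus, whereas Krt15 made up 3.08% and 43.8% and Krt14 0.813% and 6.63%. The mucosal keratin Krt13, no member, was at 2.90% and 14.9%, Krt19 was at 0.116% and 3.80%, and Krt17 at 0.00588% and 1.42%. Among the type II keratins Krt5 held the largest share in both tissues, 74.6% in the cornea and 58.8% in the limbus, with Krt6a at 10.8% and 11.6% and Krt6b at 12.1% and 15.1%. Krt4, the mucosal partner of Krt13, was at 0.26% and 9.69%.

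**Figure D3:**
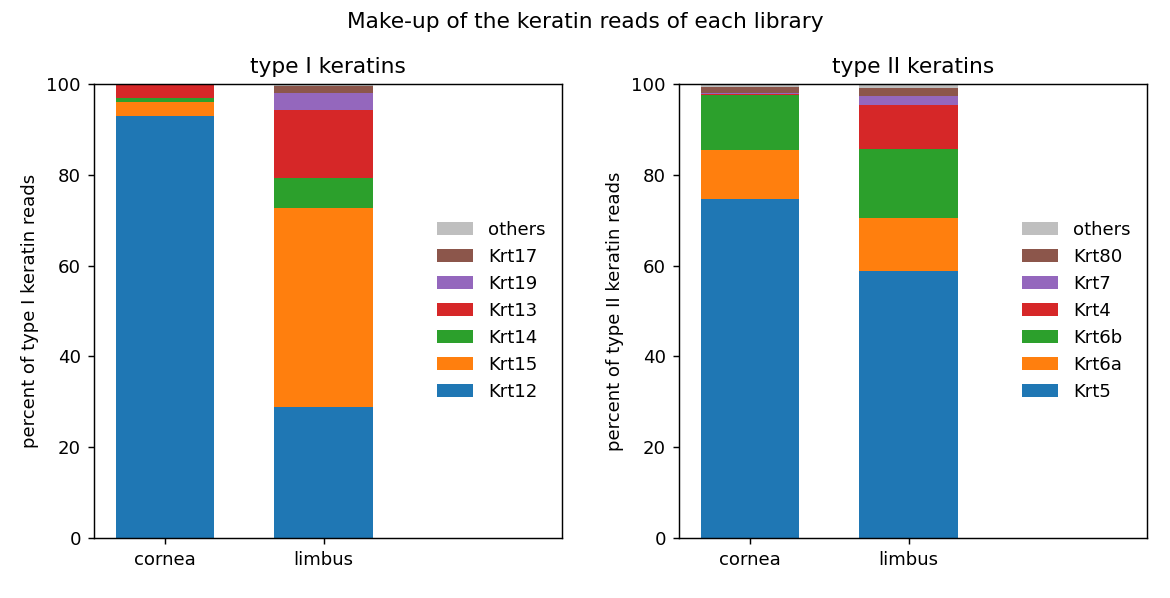
Share of the type I (left) and type II (right) keratin reads of each library taken by the 6 genes shown and by all others, in percent, stacked to 100. One gene, Krt12, fills 92.9% of the type I bar of the cornea, while Krt15, Krt12 and Krt13 share most of that of the limbus. Krt5 fills most of both type II bars.

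Ratios between chains, which do not depend on the scaling of the libraries, were computed from reads per kilobase. All type I over all type II keratins came to 1.81 in the cornea and 1.43 in the limbus. Krt12 over Krt5 was 2.20 in the cornea and 0.638 in the limbus, Krt15 over Krt5 0.0794 and 1.05, and Krt14 over Krt5 0.0210 and 0.160. The 3 together, Krt12 with Krt14 and Krt15, came to 2.30 per Krt5 for the cornea and 1.85 for the limbus, a far smaller difference than for any of the 3 alone. Krt12 over Krt15 was 27.7 and 0.605. Krt15 over Krt14 was 3.79 and 6.60, a 1.74-fold difference between the tissues, beside 26.2-fold for Krt12 over Krt14 and 45.7-fold for Krt12 over Krt15. Krt17 over Krt14 was 0.00792 and 0.235. Krt17 over the sum of Krt6a and Krt6b was 0.000556 and 0.0847, a 152.4-fold difference. Krt6b over Krt6a was 1.14 and 1.32. Messenger levels per kilobase are not protein levels.

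The 10 keratins together took 7.62% of the reads on named genes in the cornea and 6.07% in the limbus, which as a ratio is 0.53 on the log2 scale, and all 44 keratins with reads 7.84% and 7.30%, or 0.31. The 6 type I members were at 0.76 and the 4 type II members at 0.25. To set these beside the epithelium in each pool, 18 genes that epithelia express were summed. They include the junction gene Perp, the transcription factors Elf3 and Ehf, the cadherin Cdh1 and Trp63, a gene of basal stratified rather than of all epithelium. They had 203753 cornea reads and 154960 limbus reads (log2 of the sums 0.30), although their median ratio was -0.13, with 8 genes on the cornea side and 10 on the limbus side. Perp alone had 81644 and 38421 reads (0.99), Elf3 20108 and 26422 (-0.49), and Ehf 18391 and 9963 (0.79). The ends of the list were Trp63 (1.06) on the cornea side and Cldn1 (-1.60) and Elf3 on the limbus side. Relative to their sum the 10 keratins were at 0.23, all keratins at 0.01 and the type I members at 0.46, while the type II members turned from 0.25 to -0.05. Per normalized read of the 18 genes the cornea had 10.05 normalized keratin reads and the limbus 9.98. These relative values, with the turn of the type II members, lean on Perp, which had the most reads of the list. The sum without Perp was not computed. Scaling by the median of the 18 genes, which lies on the limbus side, would move ratios the other way and was not done.

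The keratins outside the 10 lay mainly on the limbus side. Of 10 keratins of simple and mucosal epithelia all were compared, 8 were on the limbus side and 7 of them at least 2-fold, with a median of -2.80. Krt13 had 35544 cornea reads and 120736 limbus reads (-1.86), Krt4 2138 and 71498 (-5.16), and Krt19, a type I keratin of simple and ductal epithelia that is also used as a limbal marker, 1417 and 30740 (-4.53). Krt7 had 1489 and 15389 reads (-3.47), Krt8 39 and 1131 (-4.95) and its partner Krt18 45 and 254 (-2.59). Krt78 (4619 and 2912, 0.57) and Krt20 (6 and 4, 0.49, interval -1.59 to 2.76) were the 2 on the cornea side. Krt23 stood at -0.79 and Krt80, a keratin of many stratified epithelia, at -0.12. Of 22 hair follicle keratins 5 could be compared, with a median of -0.36: Krt75 of the companion layer had 525 and 2939 reads (-2.58), Krt32 13 and 51 (-2.07) and Krt74 28 and 12 (1.13). Krt26, Krt71, Krt72, Krt73, Krt81 and Krt82 had no reads or are not among the named genes.

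**Figure D4:**
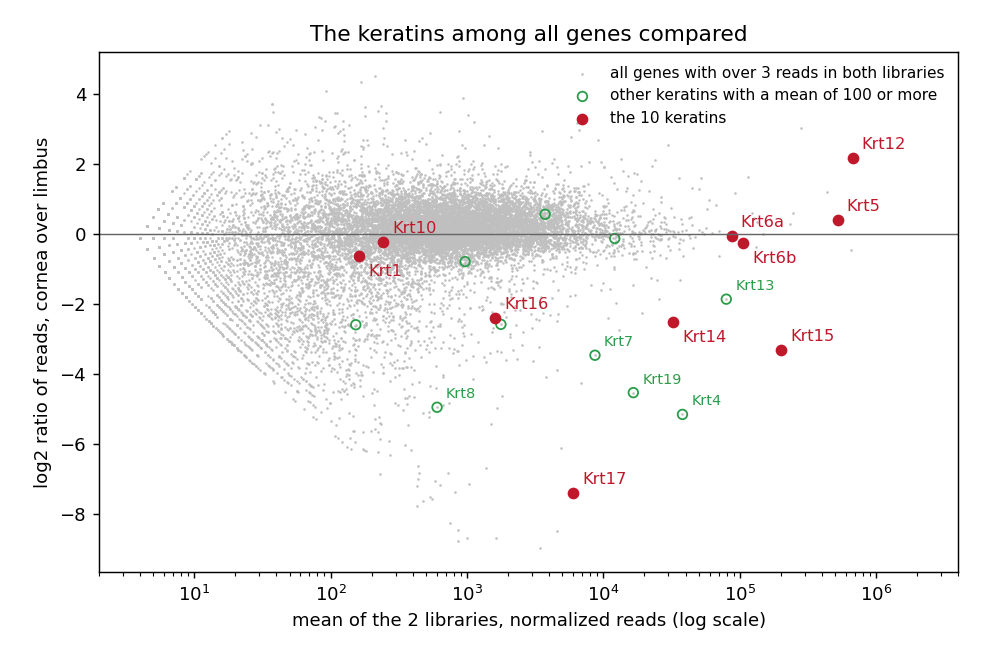
Log2 ratio of cornea over limbus against the mean of the 2 libraries in normalized reads (log axis) for the 13862 genes compared (grey), the 10 keratins (filled) and other keratins with a mean of at least 100 (open). Krt12 and Krt5 are at the far right on the cornea side, and Krt15, Krt14, Krt4, Krt19 and Krt17 stand well below the bulk of genes of like abundance.

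The proteins that anchor keratin filaments at desmosomes and hemidesmosomes spanned log2 ratios of -1.79 to 0.82, beside -7.42 to 2.19 for the 10 keratins. Of 10 such genes, 0 were called on the cornea side and 1 on the limbus side, under each scaling, while their median of 0.11 turned to -0.09 with total reads and -0.19 with pan-epithelial scaling. Dsp, desmoplakin, had 88716 cornea reads and 46876 limbus reads (0.82), Ppl, periplakin, 62447 and 51416 (0.18), and Evpl, envoplakin, 43664 and 41261 (-0.01). Pkp1, a plakophilin of stratified epithelia, was at 0.37, and Pkp2, the plakophilin of simple epithelia and heart, at -1.79 (104 and 337 reads), with Plec, plectin, at -0.54.

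Of 14 transcription factors known to act on corneal or basal keratin genes, 2 were called on the cornea side and 0 on the limbus side, with a median of 0.30, but 1 and 0 with total reads (median 0.09) and 0 and 1 with pan-epithelial scaling (median -0.002). Klf4, a factor of corneal epithelial differentiation, had 26458 cornea reads and 10248 limbus reads (1.27), and Trp63, the p63 gene of basal stratified epithelium, 8737 and 3929 (1.06). Pax6, the eye field factor that acts on Krt12, had 18145 and 10507 (0.69). Elf3 and Ehf, also counted among the epithelial genes above, were at -0.49 and 0.79. On the limbus side Tfap2b (466 and 720, -0.72) and Ovol1 (1392 and 1855, -0.51) were furthest.

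Markers of other tissues of the eye also differed between the libraries, and their part in the keratin ratios was not tested. Of 9 conjunctival and goblet cell genes 6 were compared, and all 6 lay on the limbus side, 4 of them at least 2-fold (median -2.85). The list sums to 96776 cornea reads and 306643 limbus reads, led by Krt13, Muc4 (57610 and 83024, -0.62) and Krt4, of which Krt13, Krt4 and Krt19 are also in the keratin list above. The goblet cell mucin Muc5ac had 1 read in each library and Foxa3 2 and 1, while Agr2, a secretory cell gene, had 46 and 618. Tff1 had no reads or is not among the named genes. Muscle genes had 114 cornea reads and 10177 limbus reads (8 of 8 at least 2-fold to the limbus), led by Myh4 (8 and 3126), Tnnt3 (5 and 1926) and Ckm (5 and 1653). Vessel endothelial genes had 236 and 3105 (3 of the 4 compared), with Pecam1 at 6 and 831, pigment cell genes 316 and 1590 (5 of 5), with Dct at 183 and 710, and lens genes 1147 and 11481 (5 of the 5 compared), with Cryaa at 468 and 5423. Of 12 stromal genes 3 were called on the limbus side and 1 on the cornea side (median -0.46, 94030 and 132371 reads). Dcn, decorin, had 30813 and 44833, Col3a1 106 and 3124 (-4.98) and Kera, the keratocan of keratocytes, 12119 and 1423 (2.99).

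Of 4299 genes whose mean reached 1000, those whose ratio came nearest to that of Krt12 were Aldh1a1 (7369 cornea reads and 1548 limbus reads, log2 2.16), Dsg1a (22856 and 4839, 2.14) and Tmprss11e (4912 and 963, 2.25). Aldh1a1 is an aldehyde dehydrogenase and Dsg1a a desmosomal cadherin of differentiating stratified epithelium. Among the nearest to Krt15 were Cd74, the invariant chain of antigen-presenting cells (413 and 3823, -3.31), and the lens crystallin Crybb2 (327 and 3147, -3.36). The likeness is that of 1 ratio over 2 libraries.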

How the data were processed

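RNA sequencing of limbal rims and corneal buttons was available as 1 table of the comparison. Per the study's methods, CLC Genomics Workbench was used to trim adaptors, to map the reads (GRCm38, mm10) and to normalize them by the trimmed mean of M-values. What the authors deposited is the mean normalized signal of each gene over the libraries. Its layout is that of DESeq output, a tool the methods do not name. The table has 40904 rows, of which 17484 name no gene, hold no value and were left out, and 5978 named genes are at 0.

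Each of the other 17442 means was a sum of whole reads from 2 libraries, with 109 cornea reads equal in weight to 102 limbus reads (largest distance from a whole number 0.0101). The mean allowed 1 pair of reads for 6143 genes. For the rest, the pair was chosen whose predicted fold change and error came closest to the log2 fold change and standard error that the authors deposited, and 17442 genes were met within 0.001, 19 of them with a dispersion of their own. These 2 columns served only to choose among pairs allowed by the mean, their values are not reported, and the p-values and adjusted p-values of the authors were not used. For Krt5 and Krt12 the next best pair missed by 6.49 and 3.34 times as much, but neighbouring pairs change their log2 ratios by at most 0.00077. The reads are derived values, not a count table. The step was tested on simulated data. These were made with the same model that the step uses, so the test cannot show whether that model is the one behind the deposited values.

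The planned tests on counts per sample could not be made. Ratios are of reads over size factors, with exact intervals at the 95% level. A gene was compared with more than 3 reads in both libraries, and called at 2-fold or more with an interval that excludes 0. Per-kilobase values use exon lengths from GENCODE M21, which also gave positions and coding sequences. Promoters are from RefSeq. The 10 members and 13 gene lists were chosen with earlier results of these data known. Named beside the members were the 3 genes of a list with the most reads or the 2 with the largest ratios on each side, other keratins with a mean of at least 100, and the 3 genes nearest in ratio to Krt12 and Krt15, and of the marker lists also those at or near 0. The values of 1 gene that this rule names are not reported here. Alternatives were scaling to total reads, trimmed mean of M-values, pan-epithelial reads or the median (mean of 50 or more), a pseudocount of 1, filters on the mean of 10 and 50, and shares per kilobase. Python 3.11.15, numpy 2.4.6, scipy 1.17.1, pandas 2.3.3, Biopython 1.88 and matplotlib 3.10.9 were used.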

Additional observations from a re-analysis of the deposited data

How the results depend on the processing

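No paired analysis was possible because the table has no column per sample, and with 1 library per tissue no library could be left out. The 10 members kept their side under each of the 4 planned scalings, the pseudocount and an added scaling to total reads without the keratins, chosen after seeing the data, and 1 and 4 members were called under each scaling. Scaling to total reads moved every ratio by -0.21, pan-epithelial scaling by -0.30, the added one by -0.20, median centring by -0.10 and trimmed mean of M-values by -0.02, and the median of the members ranged from -0.45 to -0.75. All these shifts were towards the limbus, so that under them only Krt5 and Krt12, on the cornea side, could have changed side. Of 60 member values under alternatives, 33 left the counting interval, all through scaling. The share of all genes at least 2-fold higher in the cornea went from 8.66% to 5.37% with total reads and 4.39% with pan-epithelial scaling, and that in the limbus from 14.7% to 17.3% and 18.8%. Among genes with a mean of 10 or more these shares were 8.90% and 15.0%, and with a mean of 50 or more, which all 10 members exceed, 8.60% and 11.4%. Counted per kilobase, Krt12 made up 92.3% and 26.9% of the type I keratins of cornea and limbus, Krt15 3.33% and 44.4%, and Krt5 75.8% and 60.3% of type II. Counting error was widest for Krt17, Krt1 and Krt10. The spread between mice and between pools is unknown.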
